A study of Mus musculus with 5 samples.

Results

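Transcripts of 8 immediate early genes, Egr1, Egr2, Egr3, Ier2, Ier3, Ier5, Nr4a1 and Srf, were followed in cultured mouse cardiac fibroblasts (CF) by SLAMseq. They were picked from the count tables by their names and are 8 of the 20365 gene names there. Each gene was represented by 1 interval of its 3′ untranslated region (UTR), the one with the highest mean level in the labeled libraries. CF came from hearts of healthy adult male C57Bl/6J wildtype mice and were released by collagenase in a Langendorff perfusion. In the authors' isolation protocol, endothelial and immune cells were depleted with magnetic beads before plating. The CF were then cultured to confluency. In 3 libraries the cells had been kept for 12 h with 0.1 mM of the uridine analog 4-thiouridine (S4U). In 2 libraries the cells had been kept for the same 12 h without S4U. RNA of both groups was alkylated, so the groups differ in S4U alone as far as the labels say. S4U taken up into RNA during the 12 h is read as C in place of T after alkylation, and the share of covered T positions read as C is the T>C conversion rate. The labeled libraries came from separate CF preparations, and the unlabeled cells were kept in parallel, but the sources used here do not say whether they came from the same preparations. The p-values below therefore measure the spread between these libraries, part of which may be technical.

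Immediate early genes are transcribed within minutes of a growth factor, serum or mechanical stimulus, without new protein synthesis, and many of their transcripts are short-lived. Serum response factor (SRF) binds the CArG box in the promoters of many of them and works with ternary complex factors of the Elk family or with the actin-regulated myocardin-related factors. Egr1, Egr2 and Egr3 encode zinc finger transcription factors that are restrained by the NAB corepressors, Nr4a1 encodes an orphan nuclear receptor, and Ier2, Ier3 and Ier5 encode small regulatory proteins. In fibroblasts SRF is also known to drive genes of the contractile cytoskeleton.

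The sequences that carry these known controls are shown first. Entries of the RefSeq promoter table (GRCm38.p6, 250 bases before to 50 bases after a start) were examined for Egr2, Ier3, Ier5, Nr4a1 and Srf. Each entry was found exactly once on its own chromosome and strand in GRCm39. The promoters of Egr1, Egr3 and Ier2 were not examined, so the presence or absence of a match is not known for them. The CArG box, searched on both strands, was present in 1.64% of 32544 promoters of the table. The Srf promoter held 2 CArG boxes, beginning 82 and 62 bases before the start, so the gene of the factor carries the letters of its own binding site. The Srf promoter follows in full with both boxes in capitals, from the minus strand of chr17:46867039-46867338 (GRCm39).
Srf promoter: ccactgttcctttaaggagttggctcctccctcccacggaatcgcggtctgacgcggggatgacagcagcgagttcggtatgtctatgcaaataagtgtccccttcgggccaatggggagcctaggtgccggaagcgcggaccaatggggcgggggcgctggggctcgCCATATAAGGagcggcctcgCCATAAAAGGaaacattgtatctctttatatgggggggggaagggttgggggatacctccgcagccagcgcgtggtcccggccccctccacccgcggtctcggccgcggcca
Of the 5 promoter entries for Egr2, 4 held 1 CArG box, and 2 different boxes were found among them. Both are shown in windows of 30 bases with the box in capitals, from the plus strand of chr10:67373314-67373343 and chr10:67373617-67373646 (GRCm39). They are shown because, among the genes whose promoters were examined, Egr2 and Srf were those with a match.
Egr2 first box: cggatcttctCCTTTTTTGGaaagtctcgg
Egr2 second box: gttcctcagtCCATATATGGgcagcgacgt
The promoters of Ier3, Ier5 and Nr4a1 held no match to the CArG box. Nr4a1 held 4 copies of the short core of the cAMP response element (TGACG, on either strand, in 20.9% of all promoters), Srf held 1 and 3 of the Egr2 entries held 2 each. None of the promoters examined held the full element TGACGTCA, which 1.80% of all promoters held. An Egr site (GCGGGGGCG, on either strand, in 2.93% of all promoters) was found once in the Nr4a1 promoter and once in the Srf promoter. Srf also held TATAAA, which 13.6% of all promoters held on either strand.

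In the 3′ UTR intervals the AU-rich letters TATTTAT, which contain ATTTA, were searched on the sense strand. AU-rich elements of this kind are known to be bound by factors that shorten the life of a transcript. TATTTAT occurred 4 times in the Ier3 interval and 2 times in the Srf interval. It occurred in none of the other 6 intervals. Of the 2216 intervals of a like length to that of Ier3 (0.8 to 1.25 times its length), 16.4% held TATTTAT, and of the 2371 of a like length to that of Srf, 44.2% did. Each match is shown in 30 bases with the 7 letters in capitals, since the sites in Ier3 stand close together (GRCm39, positions counted from the first base of the interval).
Ier3 window at base 182, plus strand of chr17:36133373-36133402: tgtctaattaaTATTTATgtatttatgtat
Ier3 window at base 190, plus strand of chr17:36133381-36133410: taatatttatgTATTTATgtatatcctcct
Ier3 window at base 232, plus strand of chr17:36133423-36133452: ggtgtatgtaaTATTTATtctaacttatgc
Ier3 window at base 287, plus strand of chr17:36133478-36133507: tgtaacacagaTATTTATtacgatttatag
Srf window at base 45, minus strand of chr17:46859946-46859975: acggcaccactTATTTATtgttgccttttc
Srf window at base 1366, minus strand of chr17:46858625-46858654: tgtaacctcagTATTTATgtaatttgtaca
The shorter ATTTA occurred 5 times in Ier3, 7 times in Egr3, 3 times each in Egr2, Nr4a1 and Srf, 2 times each in Egr1 and Ier5 and not in Ier2, where 64.0% of intervals of a like length held it. A match is a description of letters, and whether a factor binds there was not measured.

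Each interval lay in the gene's own 3′ UTR in GRCm39, for Srf with 2242 of its 2244 bases. Egr1 (ENSMUSG00000038418.10) was counted on chr18:34996822-34998009, plus strand, in exon 2, and Egr2 (ENSMUSG00000037868.16) on chr10:67376819-67378018, plus strand, in exon 3. Egr3 (ENSMUSG00000033730.6) was counted on chr14:70317355-70320062, plus strand, in exon 2, and Nr4a1 (ENSMUSG00000023034.9) on chr15:101172134-101172676, plus strand, in exon 9. Ier2 (ENSMUSG00000053560.6) is a gene of 1 exon, counted on chr8:85387960-85388714, minus strand, and Srf (ENSMUSG00000015605.8) was counted on chr17:46857765-46860008, minus strand, in exon 7. Ier3 (ENSMUSG00000003541.8) was counted on chr17:36133203-36133803, plus strand, in exon 2, and 429 of its 601 bases overlap the lncRNA Gm66231 on the opposite strand. Ier5 (ENSMUSG00000056708.6) was counted on chr1:154972113-154974249, minus strand, in exon 1. The whole Ier5 interval of 2137 bases also lies within the span of the lncRNA gene Gm69473 on the same strand. The exons of Gm69473 were not compared with the interval, so whether its reads are counted there is not known.

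Library depth, taken as the reads on the kept intervals, ran from 506045 in labeled 3 to 1842706 in unlabeled 1. Labeled 1 and unlabeled 1 stood apart from the others. Counts of labeled 1 differed from those of labeled 2 by a chi-square of 18.2 per degree of freedom and unlabeled 1 from unlabeled 2 with 17.7, against 2.20 between labeled 2 and labeled 3. Their reads also covered fewer T positions, 18.2 and 19.3 per read against 20.6 to 21.5 in the other libraries. All 9 fibroblast markers were detected, and their summed level was 38944 to 42595 CPM in the labeled and 31529 to 35099 in the unlabeled libraries, so it was higher in every labeled library. Most of this difference came from Col1a1 (13036 against 9223 CPM on average) and Col1a2 (11048 against 8184). Pdgfra went the other way, with 516 to 525 in the labeled and 722 to 841 in the unlabeled libraries, and the median log2 fold change of the 9 markers was 0.14. The 5 endothelial markers summed to 93.9 to 186 in the labeled and 133 to 198 in the unlabeled libraries, and the 5 macrophage markers to 36.2 to 73.6 and 35.8 to 70.3. The cardiomyocyte markers summed to at most 7.03, with Actn2 and Ryr2 at 0 in every library, and the mural markers to at most 15.8, with Myh11 at 0.

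Levels are given as CPM, scaled to the reads counted on 1 interval per gene. Each level is also given per kilobase of the counted interval. A 3′ tag library yields reads near the poly(A) site, so division by the interval's length may not make genes comparable, and the order of the genes differs between the 2 scales. Levels spanned from near 0 for Egr3 to 116 CPM for Ier3. With bulk RNA, fewer expressing cells and less RNA per cell cannot be told apart.

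**Figure D1:**
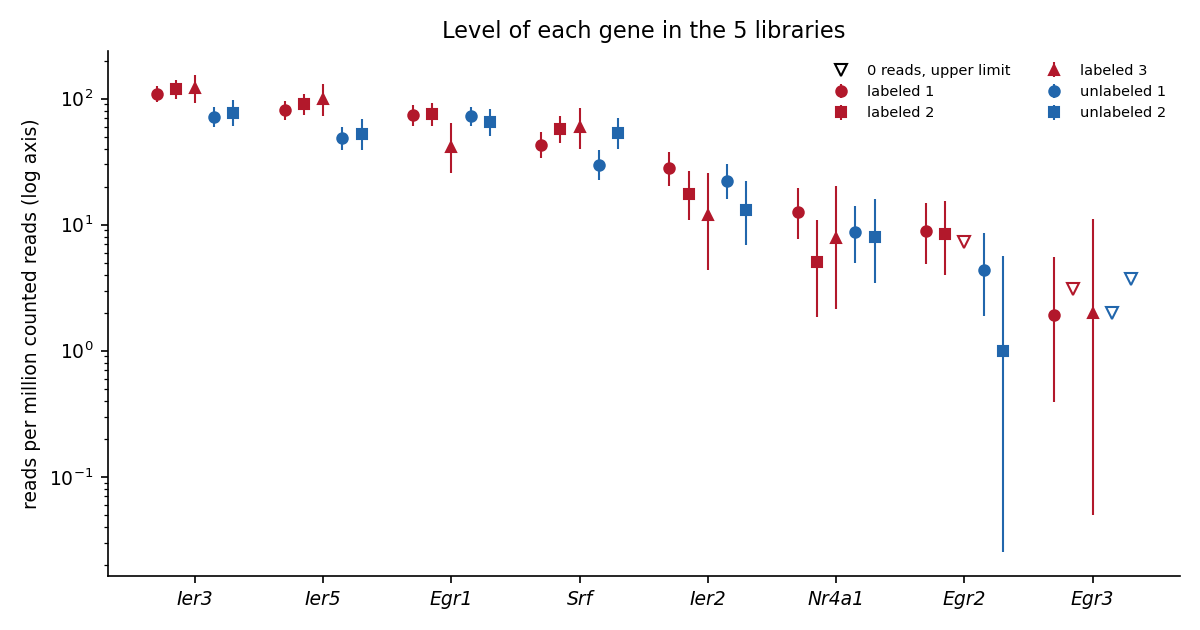
Level of each gene in each library, in CPM of counted reads on a log axis, with exact 95% Poisson intervals that cover counting error only. Circles, squares and upward triangles are replicates 1, 2 and 3, and open downward triangles mark the upper limit where no read was counted. Ier3 and Ier5 are the genes whose 3 labeled libraries all lie above both unlabeled libraries

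Of the zinc finger factors, Egr1 was by far the most abundant. Egr1 had 73.6, 75.3 and 41.5 CPM in labeled 1, 2 and 3 and 72.2 and 65.3 in unlabeled 1 and 2. Labeled 3, with 21 reads, was the lowest and the groups overlapped, with a labeled mean of 63.5 ± 19.0 (SD, n = 3). Egr2 had 8.88, 8.37 and 0 in the labeled and 4.34 and 1.00 in the unlabeled libraries, on 33 reads in all. Labeled 3, which had no Egr2 read, was lowest here too, but at its depth an Egr2 level of up to 7.29 is within the 95% interval of a count of 0. Egr3, an activity-induced factor best known from nerve and muscle spindle development, had 3, 0 and 1 reads in the labeled libraries and 0 in both unlabeled ones, 4 reads in all. Egr3 is therefore at the limit of detection in these CF at this depth, and no fold is given.

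Among the Ier genes the order was Ier3, Ier5, Ier2. Ier3, which encodes a stress-induced regulator of apoptosis and signaling, had 109, 118 and 121 CPM in the labeled and 71.6 and 77.3 in the unlabeled libraries. Its labeled libraries were close together (116 ± 5.99) and all above both unlabeled libraries. Ier5, a regulator of heat shock factor 1 activity, had 80.6, 90.4 and 98.8 in the labeled and 48.3 and 52.2 in the unlabeled libraries. The groups did not overlap for Ier5 either, with a labeled mean of 89.9 ± 9.12 (SD, n = 3). Ier2, a nuclear protein induced by growth factors, had 27.9, 17.6 and 11.9 in the labeled and 22.2 and 13.1 in the unlabeled libraries. The Ier2 groups overlapped, and the lowest value was again labeled 3, with 6 reads.

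Srf had 43.1, 56.9 and 59.3 CPM in the labeled and 29.8 and 53.2 in the unlabeled libraries. The 2 lowest values were the libraries numbered 1 of each group, and the groups overlapped. Nr4a1 had 12.7, 5.02 and 7.90 in the labeled and 8.68 and 8.03 in the unlabeled libraries, on 54 reads in all. Both unlabeled Nr4a1 values lay within the labeled range.

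Per kilobase of interval the labeled means were 193 ± 9.96 for Ier3, 53.4 ± 16.0 for Egr1, 42.1 ± 4.27 for Ier5, 25.3 ± 10.8 for Ier2, 23.7 ± 3.88 for Srf, 15.7 ± 7.13 for Nr4a1, 4.79 ± 4.16 for Egr2 and 0.478 ± 0.414 for Egr3 (SD, n = 3 each). Ier3 was above Egr1 in every labeled library, and the lowest Nr4a1 value of 9.25 was above the highest Egr2 value of 7.40. The neighbours Egr1 and Ier5, Ier2 and Srf, Srf and Nr4a1, and Egr2 and Egr3 overlapped between libraries and did not differ beyond their spread. Without division by length, Ier5 (89.9 CPM) stood above Egr1 (63.5) and Srf (53.1) above Ier2 (19.1), so these orders depend on the scale. Per kilobase, Ier5 and Ier2 were close to each other in labeled 1, at 37.7 and 37.0. Egr1, Egr2 and Ier2 were each lowest in labeled 3, as were 36.3% of the 9806 genes tested for reads, whereas Ier3, Ier5 and Srf were each highest there.

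Incorporation of S4U was seen for every gene with enough reads to show it. In the beta-binomial likelihood-ratio test of conversions over covered T positions, two-sided, 6 of 6 testable genes had a raised T>C rate in the labeled libraries at a p below 0.05. This share is close to the background, since 94.6% of the 19240 testable intervals were raised by the same test and 0 were lowered. Egr2 and Egr3 were not testable, because a library without reads has no covered T.

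**Figure D2:**
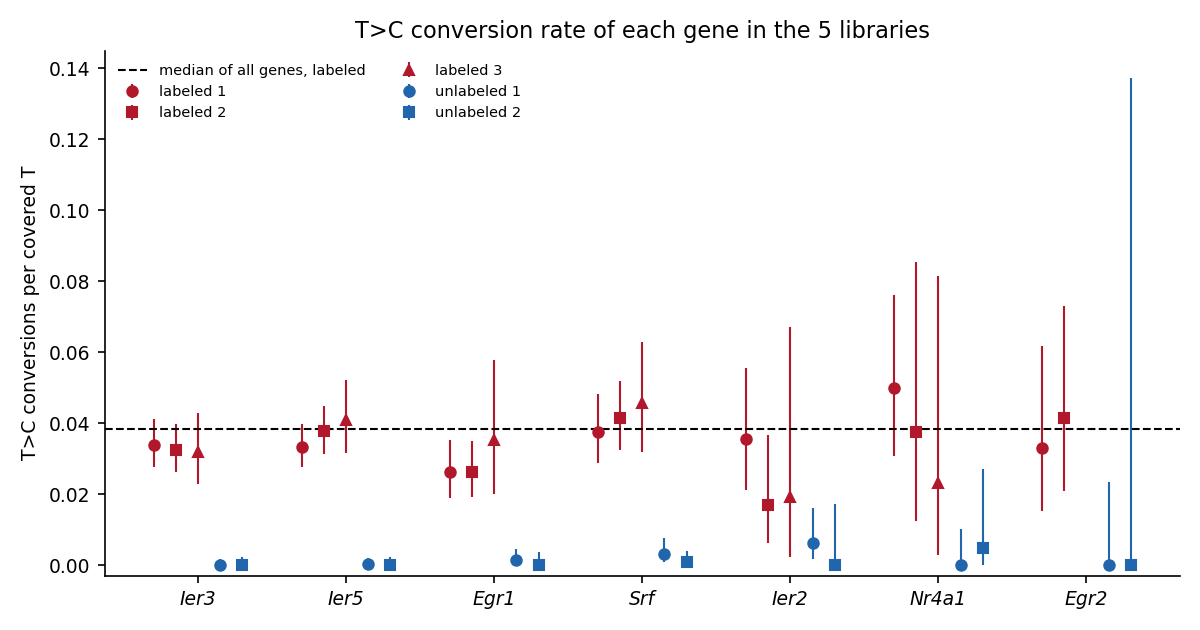
T>C conversion rate, in conversions per covered T, of 7 genes in each library, with exact 95% binomial intervals that cover counting error only. Red marks are labeled and blue marks unlabeled libraries, circles, squares and triangles are replicates 1, 2 and 3, and the dashed line is the median of 0.0384 over 8390 genes. The labeled values of the 6 tested genes lie above all their unlabeled values, and the wide intervals of Ier2, Nr4a1 and Egr2 show their low coverage.

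Egr1 was converted at 0.0262, 0.0262 and 0.0354 of its covered T positions in labeled 1, 2 and 3, against 0.00154 and 0 in unlabeled 1 and 2 (beta-binomial p = 3.12e-05). The labeled mean was 0.0292 ± 0.00531 (SD, n = 3). Labeled 3 was the highest, on 424 covered T positions against 1565 and 1682. Pooled over the labeled libraries, 100 of 3671 covered T positions of Egr1 were converted, a rate of 0.0272 with an exact 95% binomial interval of 0.0222 to 0.0330. The median pooled rate over the 11589 genes that reached 100 covered T positions, 0.0379, lies above this interval, and 14.0% of those genes had a lower rate.

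Egr2 was converted at 0.0331 and 0.0415 in labeled 1 and 2, had no covered T in labeled 3, and showed 0 conversions on 181 covered T positions in the unlabeled libraries, which allows a rate of up to 0.0166. The pooled labeled rate of Egr2, 0.0372 from 20 conversions, had an interval of 0.0229 to 0.0569 that spans the median over genes. Egr3 showed 0 conversions on 66 covered T positions in the labeled libraries. This allows a rate of up to 0.0455, above that of most genes, so a raised rate of Egr3 was not detectable at this depth.

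The Ier genes covered a range from low to near the median. Ier3 was converted at 0.0339, 0.0325 and 0.0317 in the labeled libraries and at 0 in both unlabeled ones (beta-binomial p = 1.12e-06). Its 3 labeled values lay close together, with a mean of 0.0327 ± 0.00108 (SD, n = 3), and the 0 of 3831 unlabeled T positions allows a rate of up to 0.000783. The pooled interval of Ier3, 0.0289 to 0.0374, ended just below the median of 0.0379.

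Ier5 was converted at 0.0333, 0.0377 and 0.0409 in the labeled and 0.000365 and 0 in the unlabeled libraries (beta-binomial p = 2.07e-06). Its mean of 0.0373 ± 0.00382 (SD, n = 3) was near the median, and its pooled interval, 0.0325 to 0.0407, held it. Ier2 was converted at 0.0354, 0.0170 and 0.0190 in the labeled and 0.00632 and 0 in the unlabeled libraries (beta-binomial p = 0.00916). Labeled 1 was the highest for Ier2, but labeled 2 and 3 rest on 6 and 2 conversions, and the pooled interval of 0.0177 to 0.0392 spans the median. The unlabeled 1 rate of Ier2, 4 conversions on 633 covered T positions, was the highest unlabeled rate of the 8 genes.

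Srf had the highest mean rate of the 5 genes whose labeled libraries each covered 100 or more T positions. It was converted at 0.0375, 0.0413 and 0.0456 in the labeled and 0.00303 and 0.000733 in the unlabeled libraries (beta-binomial p = 1.08e-05). The labeled mean was 0.0415 ± 0.00405 (SD, n = 3). The Srf rate was above the Egr1 rate and above the Ier3 rate in each of the 3 labeled libraries, and its pooled interval, 0.0348 to 0.0473, did not overlap that of Egr1. Nr4a1 was converted at 20 of 400 covered T positions in labeled 1, at 0.0376 and 0.0233 in labeled 2 and 3 and at 0 and 0.00490 in the unlabeled libraries (beta-binomial p = 0.00156). Its labeled values rest on 20, 5 and 2 conversions and the pooled interval of 0.0289 to 0.0628 is wide.

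**Figure D3:**
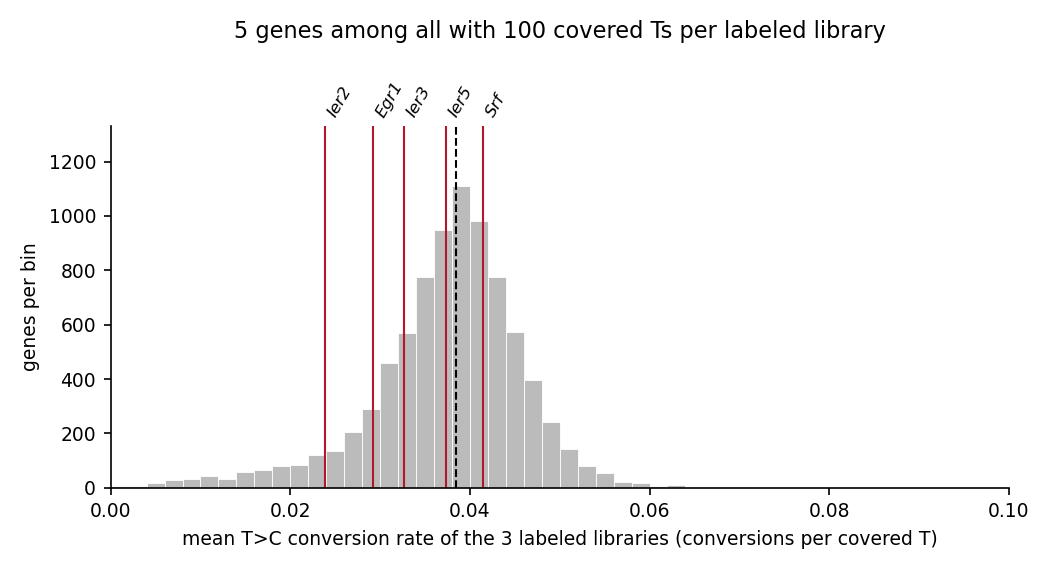
Distribution of the mean T>C conversion rate of the 3 labeled libraries over the 8390 genes whose labeled libraries each covered 100 or more T positions (grey bars, genes per bin). Red lines mark the 5 genes of the set that passed this minimum and the dashed line the median, and 4 of the 5 lines lie to its left.

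Among these 8390 genes, whose quartiles were 0.0336 and 0.0425, the share of genes with a lower mean rate was 6.72% for Ier2, 13.0% for Egr1, 22.0% for Ier3, 43.2% for Ier5 and 69.5% for Srf. So 4 of the 5 genes with this coverage lay below the median. Their own median was 0.0327 against 0.0384 over all 8390 genes. The labeled values of Ier2 alone ran from 0.0170 to 0.0354.

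The share of reads with a T>C conversion gave another view of the same libraries. It was 62.8% for Ier5, 62.7% for Srf, 53.3% for Nr4a1, 187 of 374 reads for Ier3, 40.1% for Egr1, 37.5% for Egr2 and 29.6% for Ier2 of the reads pooled over the labeled libraries. The median over 10003 genes with at least 20 such reads equalled the Ier3 share, and over all reads the share was 44.0% in the labeled and 2.02% in the unlabeled libraries. This share rises with the number of T positions a read covers, which was 27.7 to 30.3 in the labeled libraries for Ier5 and on average 24.1 for Srf but 16.2 for Egr1 and 13.6 for Ier2. Ier3 had 7 reads listed with a conversion in the unlabeled libraries although 0 conversions were listed on its T positions. Egr1 also had more such reads than conversions, 46 against 41 in labeled 1 and 5 against 3 in unlabeled 1. The cause of this difference between the deposited columns was not tested.

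Whether labeling itself went with a different read count was asked by comparing the reads of labeled and unlabeled libraries with edgeR's quasi-likelihood test. With the libraries treated as unpaired no gene passed, 0 of 9806 at a Benjamini-Hochberg adjusted p below 0.05 (0% of genes called). So 0 of the 7 genes of the set that could be tested passed. This depends on the pairing. With the replicate number as a block, edgeR called 1146 genes (529 higher, 617 lower), and 2 of the set, Ier3 and Ier5. Egr3 had too few reads. DESeq2 called 13 genes higher and 7 lower, and 0 of the 4 genes of the set to which it gave an adjusted p. At an unadjusted p below 0.05, edgeR had 279 genes higher (2.85%) and 307 lower, and 2 of the 7 genes, Ier3 and Ier5, were among the higher ones.

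Ier5 had a log2 fold change of 0.91 (SE 0.28, edgeR adjusted p = 0.703) and Ier3 of 0.71 (SE 0.26, edgeR adjusted p = 0.757). Neither passed in this fit, which treats the libraries as unpaired. With the replicate block both passed, Ier5 at 0.82 (edgeR adjusted p = 0.00172) and Ier3 at 0.66 (edgeR adjusted p = 0.00639). No label ties same-numbered libraries to 1 preparation, so whether the block applies is not known. Ier3 and Ier5 were also the genes whose labeled libraries all lay above both unlabeled ones in CPM of counted reads. These were 2 of 7 where 8.21% of all tested genes did so. On the deposited CPM the groups overlapped for both genes, with labeled 3 the lowest library (4.17 for Ier3 and 3.42 for Ier5). The difference in reads held its direction without both libraries numbered 1, an alternative chosen after seeing the data. In edgeR it was then 0.88 for Ier5 and 0.66 for Ier3, with only 1 unlabeled library left. The summed fibroblast markers, mainly Col1a1 and Col1a2, were higher in the labeled libraries as well, and their part in this difference was not tested. Egr2 had 1.21 with an SE of 0.97 on 24 labeled and 9 unlabeled reads (edgeR adjusted p = 0.999).

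The other genes did not pass the test. Their log2 fold change was 0.43 (SE 0.38) for Srf, 0.22 (SE 0.45) for Ier2, 0.13 (SE 0.55) for Nr4a1 and -0.02 (SE 0.32) for Egr1, each with an edgeR adjusted p of 0.999. The Srf value rests on unlabeled 1, since it was 0.01 without that library and 0.94 without unlabeled 2. The signs for Egr1 and Ier2 turned when single libraries were left out. Over the 7 genes 6 values were above 0 and 1 below, with a median of 0.43 beside 0.02 over all 9806 genes, but these are genes of 5 libraries and not independent of one another.

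**Figure D4:**
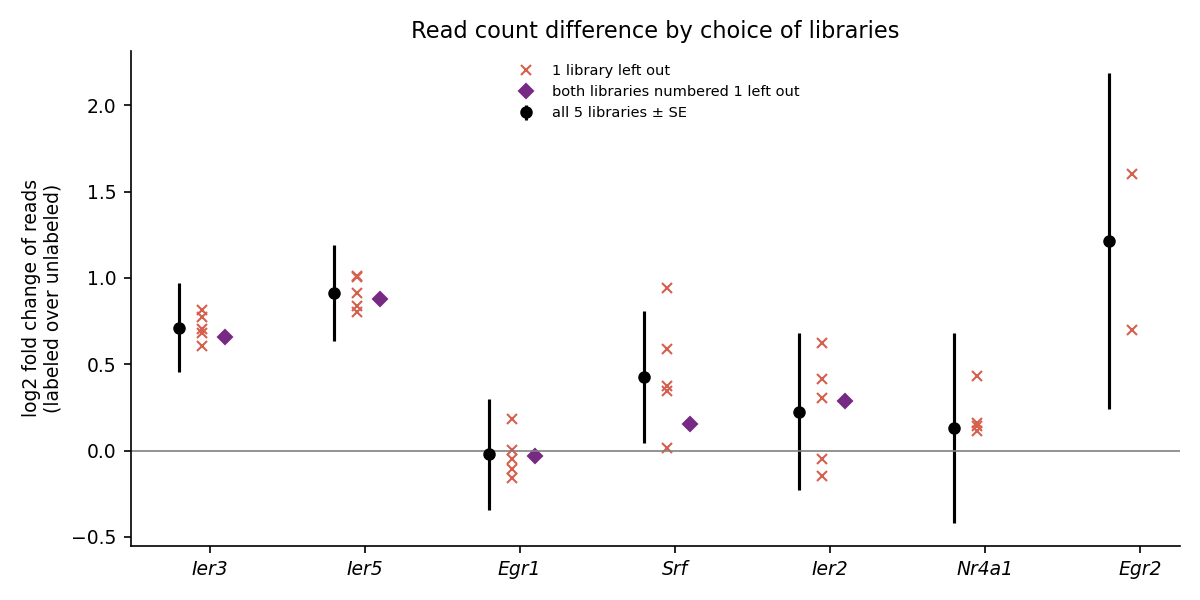
Log2 fold change of reads, labeled over unlabeled, of 7 genes with all 5 libraries (black, ± SE), with 1 library left out (red crosses, fits in which the gene passed the filter on low counts) and without both libraries numbered 1 (purple). Ier3 and Ier5 stay above 0 in every fit shown, whereas the crosses of Egr1 and Ier2 lie on both sides of 0 and those of Srf run from 0.01 to 0.94.

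The level profile of Ier3, the most abundant of the genes, was compared with those of 4619 genes that had at least 20 reads in every library. Likeness was the largest absolute difference of the centred log2 levels over the 5 libraries. The most similar were Gm10157 (0.09), Rras2 (0.10), Slc6a6 (0.10), Nelfcd (0.11) and Fgf2 (0.11). Of the set itself, Ier5 was close to Ier3 at 0.16, rank 24, Srf followed at 0.50, rank 923, and Egr1 stood at 0.94, rank 3507. With 5 libraries many genes share a profile.

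The wider pathway was described with 4 lists of genes. Of 6 relatives and corepressors, Egr4, a further zinc finger factor of the family, had no read in any library. The corepressor Nab1 had 230 CPM in the labeled and 313 in the unlabeled libraries and a T>C rate of 0.0374 ± 0.00132 (SD, n = 3), and Nab2 had 22.8 to 26.8 and 23.9 to 34.1 with a rate of 0.0305 ± 0.00949. The nuclear receptor Nr4a2 had 15.2 and 5.07, a log2 fold change of 1.51 (SE 0.64, edgeR adjusted p = 0.833), and a rate of 0.0434 ± 0.0189, while Nr4a3 had 15 reads in all. Ier5l, a paralog of Ier5, had 53.6 to 155 CPM in the labeled and 57.2 to 143 in the unlabeled libraries and a rate of 0.0232 ± 0.00154, below that of Ier5 in each labeled library.

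Of the 6 SRF cofactors, the ternary complex factors Elk1, Elk3 and Elk4 had labeled levels of 17.9, 93.2 and 3.75 CPM. The actin-regulated Mrtfa and Mrtfb had 42.8 and 50.9, and Myocd, the factor of cardiac and smooth muscle, had 1.78 on 7 reads in all. Mean T>C rates of the 4 that passed 100 covered T positions per labeled library were 0.0359 ± 0.00440 for Elk3, 0.0375 ± 0.00721 for Mrtfa, 0.0478 ± 0.00563 for Mrtfb and 0.0482 ± 0.0122 for Elk1 (SD, n = 3 each). Thus 2 of the 4 lay below the median over all genes.

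Of the 15 SRF cytoskeletal targets, 14 were tested for reads, 0 passed the edgeR adjusted threshold, 2 passed it unadjusted with higher labeled reads (2.85% of all genes did) and 13 had a fold change above 0, with a median of 0.43 beside 0.02 over all genes. Their median T>C rate was 0.0384, 7 of 14 being below the median over all genes. Of those that passed 1000 covered T positions per labeled library, Tagln, an actin cross-linking protein, had the highest rate, 0.0646 ± 0.0140, followed by Tpm1, a tropomyosin, at 0.0466 ± 0.00197. The lowest were Myl9, a myosin light chain, at 0.0269 ± 0.00321 and Tpm2 at 0.0270 ± 0.00566 (SD, n = 3 each). Tagln had 468, 517 and 777 CPM in the labeled and 164 and 211 in the unlabeled libraries, a log2 fold change of 1.73 (SE 0.35, edgeR adjusted p = 0.530). Its T>C rate in unlabeled 1 and 2 was 0.0136 and 0.00433, above the 95th percentile of unlabeled rates over genes, 0.00489 and 0.00310.

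Of 35 other immediate early genes, 27 were tested for reads, 0 passed the edgeR adjusted threshold, 7 passed it unadjusted, all with higher labeled reads (2.85% of all genes did), and 10 had labeled libraries all above both unlabeled ones (8.21% of all genes did). In the T>C test 29 of 30 were raised, near the 94.6% of all intervals. Their median T>C rate was 0.0362 over 26 genes, 19 of which lay below the median over all genes. Above 1000 covered T positions per labeled library, the highest rates were those of Ccn1, a matricellular protein, at 0.0463 ± 0.00183 and Maff, a small bZIP factor, at 0.0452 ± 0.00566. The lowest were those of the kinase gene Pim1 at 0.0283 ± 0.00305 and of Btg2, an antiproliferative cofactor, at 0.0300 ± 0.00544 (SD, n = 3 each). Maff and Btg2 had log2 fold changes of 1.45 (SE 0.29, edgeR adjusted p = 0.530) and 1.12 (SE 0.32, edgeR adjusted p = 0.631).

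**Figure D5:**
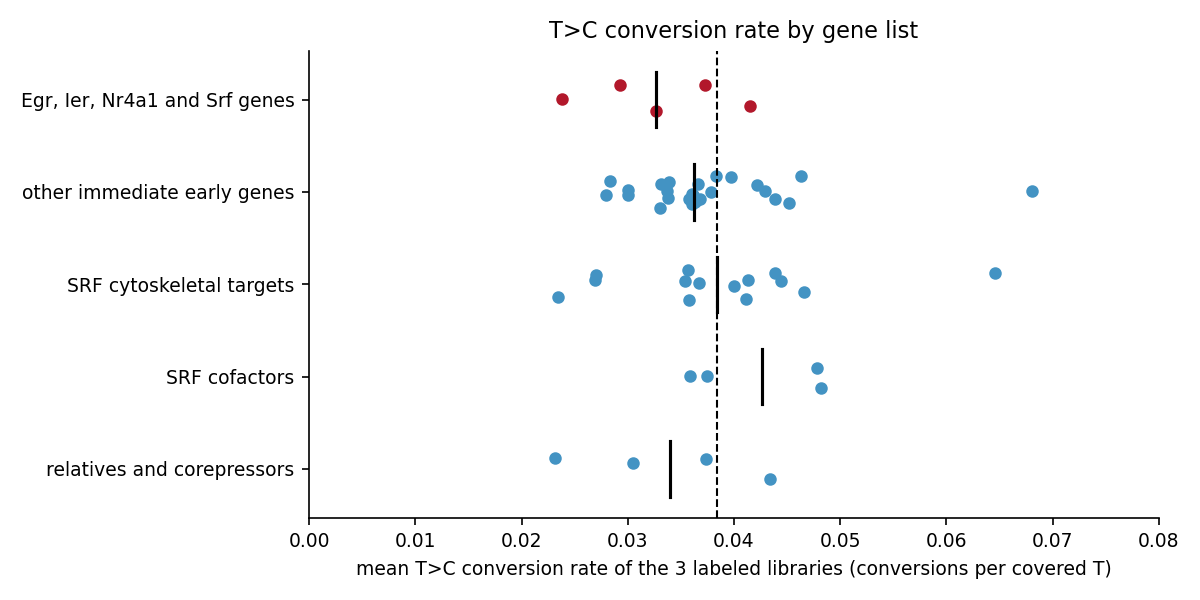
Mean T>C conversion rate of the 3 labeled libraries, in conversions per covered T, of each gene that passed 100 covered T positions per labeled library, by list. Short black lines are list medians and the dashed line is the median of 0.0384 over 8390 genes, and the medians run from 0.0327 for the Egr, Ier and Srf genes to 0.0427 for 4 SRF cofactors.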

How the data were processed

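SLAMseq libraries of CF, 3 labeled with S4U and 2 unlabeled, were grouped by the submitters' labels. Libraries were made with a 3′ tag kit (QuantSeq FWD) with unique molecular identifiers. The authors used SLAM-DUNK 0.4.3 on mm39, collapsed duplicates by identifier and counted on 3′ UTR intervals. Whether counting used the strand is not given in the sources used here. The authors deposited, per interval and library, counts of reads, of reads with a T>C conversion, of covered T positions and of conversions, none of them normalized. The deposited conversion rate is a fraction, conversions over covered T positions. The deposited CPM divides by a number per library, 10975173 to 14616278, that is larger than the reads counted on intervals, so levels were recomputed relative to the reads on 1 interval per gene. The T content of 40380 of 40380 intervals matched GRCm39.

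Of 40428 distinct intervals, 1 per gene name was kept, that with the highest mean deposited CPM in labeled libraries (the shorter of ties). The test of T>C rates was a likelihood-ratio test under a beta-binomial model (chi-square with 1 degree of freedom, two-sided, unadjusted threshold 0.05, at least 1 covered T in every library). Tested on simulated data with strong overdispersion, it called more unchanged intervals than the threshold allows. Reads were compared with edgeR (quasi-likelihood, TMM, filterByExpr, Benjamini-Hochberg over all 9806 genes), also tested on simulated data, and the SE is the fold change over the square root of the F statistic. Intervals are exact (Clopper-Pearson or Poisson, 95%) and, like the limit of 3 counts given for a count of 0, cover counting error only. Alternatives were RLE size factors, DESeq2, no filter on low counts, reads summed over intervals, stricter coverage, limma on log odds (pseudocount 0.5), the replicate block and leaving out libraries. The 8 genes, the lists and the markers were chosen with earlier results of these data known. Of each list, all genes (lists of 6) or the 2 highest and 2 lowest T>C rates above 1000 covered T positions per labeled library are named, and for Ier3 the 5 most similar profiles. Fits were run in R 4.3.3 with DESeq2 1.42.0, limma 3.58.1 and edgeR 4.0.16, and the rest in Python 3.11.15 with pandas 2.3.3, scipy 1.17.1, matplotlib 3.10.9, numba 0.67.0 and numpy 2.4.6.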

Additional observations from a re-analysis of the deposited data

How the results depend on the processing

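The 6 raised T>C rates held under Benjamini-Hochberg adjustment, limma on the log odds and each library left out, where 6 to 7 genes were raised, since Egr2 became testable without labeled 3. With a minimum of 100 covered T positions per library 5 genes could be tested and were raised, and with at least 1000 only 2 (Ier3 and Ier5), as were 3154 of 3156 intervals. No gene's mean labeled T>C rate moved by more than 1 SD in the 45 values computed. Leaving out 1 labeled library cannot move such a mean that far, and summing intervals left every rate unchanged. So only pooling the libraries and subtracting the unlabeled rate could have moved a rate beyond 1 SD. The deposited CPM lowers all 8 levels, and summing intervals moves 4 of 8 beyond 1 SD, with Egr1, Ier3 and Ier5 lower and Srf higher. For Egr2 and Srf that sum counts nested intervals more than once. For reads, DESeq2 called 20 genes, and leaving out both libraries numbered 1 left 369 (164 higher, 205 lower) and 0 of 5 genes of the set. Leaving out 1 library at a time gave 0 called genes, with log2 fold changes of -0.16 to 0.18 for Egr1 and -0.14 to 0.62 for Ier2, so that Egr1 turned positive without labeled 3 (0.18) or unlabeled 1 (0.00) and Ier2 negative without labeled 1 (-0.14) or unlabeled 2 (-0.05). The labels give replicate numbers without saying that they mark a shared preparation. With the replicate block, edgeR called 1146 genes (529 higher, 617 lower) and 2 of the set, Ier3 at 0.66 (adjusted p = 0.00639) and Ier5 at 0.82 (adjusted p = 0.00172), and Egr1 was 0.16. With limma on the log odds and the replicate block, 18435 intervals were raised. Deviations of same-numbered libraries correlated at 0.78 for number 1 and 0.63 for number 2 across genes, but labeled 3 and unlabeled 2, which share no number, also correlated at 0.47. With 2 unlabeled libraries each labeled library has 1 positive and 1 equal negative value by construction, so this is a weak hint. Depth limits Egr2, Egr3, Nr4a1 and Ier2, with 4 to 125 reads each over the 5 libraries.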
